A study of Macaca fascicularis with 21 samples.

Results

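The HOX genes are the transcription factor genes of the 4 clusters HOXA, HOXB, HOXC and HOXD. They were taken here as every row of the count table whose name is HOX, a cluster letter from A to D and a number. This rule found 37 of the 30792 genes in the table, namely 11 of HOXA, 9 of HOXB, 9 of HOXC and 8 of HOXD. RefSeq lists 39 such symbols for this species, and HOXB1 and HOXD4 have no row of that name and were not analysed here.

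The study followed embryos of the cynomolgus monkey (Macaca fascicularis) in culture from the blastocyst to gastrulation, the stage at which the epiblast forms the germ layers. Blastocysts without their zona were grown 1 per Matrigel-coated chamber in medium with rising serum. Extra-embryonic cells were cut away, and single cells were picked by hand, so the numbers of cells describe the picked cells and not whole embryos. In all, 1453 cells of 21 embryos were read at the 3′ end of the mRNA. The labels name no genotype and no drug, and all embryos shared this culture. Days 11, 12, 13, 14, 16 and 17 had 2, 5, 3, 4, 4 and 3 embryos. Labels call the day a culture stage in 5 of them (day 12 embryo 1, day 13 embryos 1 and 2, day 17 embryos 1 and 2) and a developmental stage in 16. Embryos are numbered within a day.

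The authors' cell labels were grouped into epiblast (EPI, from postE-EPI and postL-EPI), gastrulating cells (Gast, from E-Gast, L-Gast1 and L-Gast2) and amnion (AM, from E-AM, L-AM1 and L-AM2). The other groups were trophoblast (TE), primordial germ cells (PGC), extraembryonic mesenchyme (EXMC) and visceral or yolk sac endoderm (VE/YE). The prefixes E- and L- mark early and late labels. These labels were made by the authors from the same cells, so a gene that helped to make them could not have been equal between them. Which genes the authors used for them was not given in the sources used here.

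HOX proteins bind DNA through a homeodomain and give cells their position along the body axis. Within a cluster the genes lie in the order of their paralog numbers. In vertebrate embryos low-numbered genes are switched on first and reach furthest toward the head, while high-numbered genes follow later and stay closer to the tail, a rule called collinearity. HOX transcription begins in the posterior primitive streak and is under the control of retinoic acid, WNT and FGF signals, CDX factors and Polycomb repression. In the mouse, posterior HOX genes are also active in extraembryonic mesoderm such as the allantois, the precursor of umbilical vessels. Sequences of the genes were not analysed here.

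HOX transcripts were rare. The 37 members held 26668 counts, or 0.0184% of all counts, and 1119 of the 1453 cells had at least 1 HOX count. Embryos held 22 to 88 cells and 2540816 to 11857191 counts, and cells 3376 to 483669 counts (median 61090.0). Levels below are counts per 1000000 (CPM) of the summed counts of 1 cell type in 1 embryo. As the reads come from the 3′ end, CPM is not divided by gene length. How well each 3′ end was captured is not known, so levels are compared between cells, not between genes. Gene models of 17 members overlap another HOX model in RefSeq, and reads there could be split between neighbours. A low sum cannot tell fewer expressing cells from less RNA per cell, so shares of cells with a count stand beside it where they add something. Marker lists of 6 of the 7 types had their highest median sum in the type of that name, in each period where it was present. The gastrulation list was highest in Gast at days 11 to 14, but at days 16 and 17 its median was 110.2 CPM in Gast, 124 in VE/YE and 148 in PGC. In L-Gast2, SNAI2 of this list had no count and TBX6 a count in 1 cell.

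Summed over all members, HOX levels separated some of the cell types. In days 11 to 14, EPI sums of at least 5 cells ran from 11.7 to 68.6 CPM and TE sums from 16.1 to 109 CPM. VE/YE sums of at least 3 cells ran from 190 to 365 CPM. EXMC sums of at least 5 cells ran from 187 to 844 CPM, and the 5 E-AM sums of at least 3 cells from 319 to 1237 CPM. EXMC, VE/YE and E-AM thus stood above every EPI and TE sum of at least 5 cells. Smaller EPI and TE sums are not in these ranges. At days 16 and 17, EXMC sums ran from 244 to 449 CPM and EPI sums from 3.06 to 106 CPM. L-Gast2 at day 16 gave 204 to 439 CPM, while L-Gast1 of the same 4 embryos gave 2.46 to 24.3 CPM, with no overlap between these labels. Late VE/YE, L-AM1 and L-AM2, whose sums are given below, overlapped with late EPI.

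**Figure D1:**
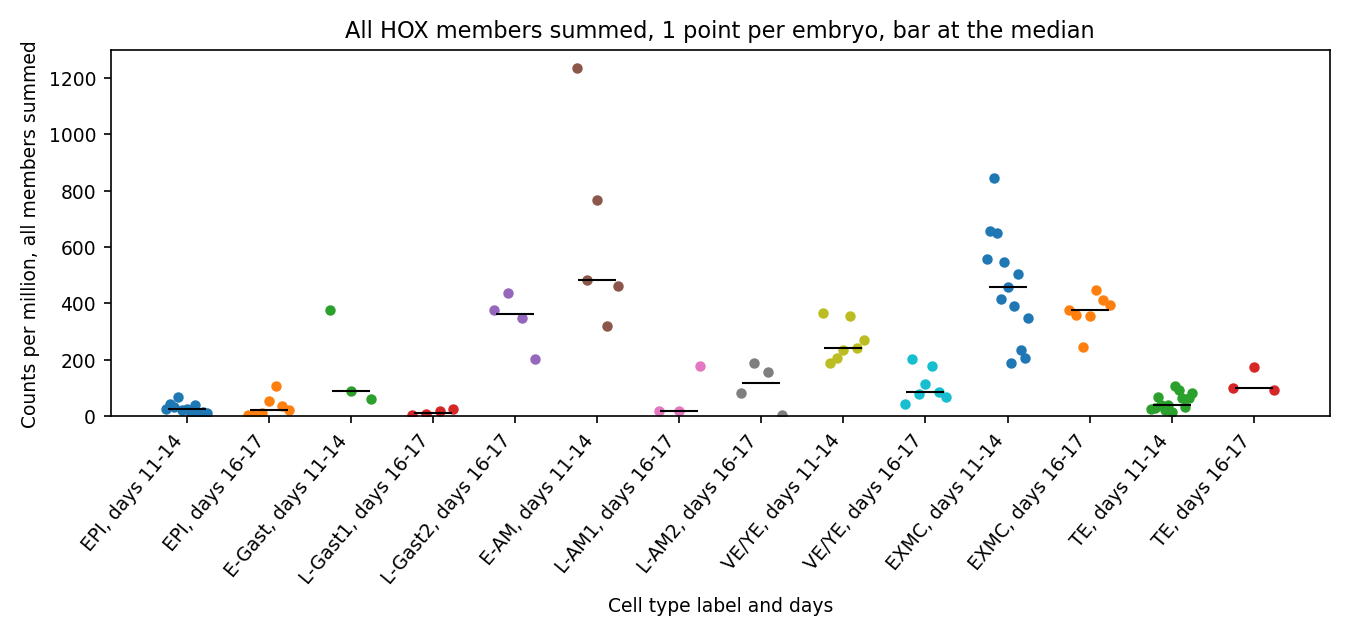
Summed CPM of all members (vertical axis, linear) by cell type and days (horizontal axis), with 1 point for each embryo with at least 3 cells of the type and a bar at the median. EPI, L-Gast1 and TE lie low, while E-AM, EXMC and L-Gast2 lie high, with 319 to 1237 CPM in E-AM.

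**Figure D2:**
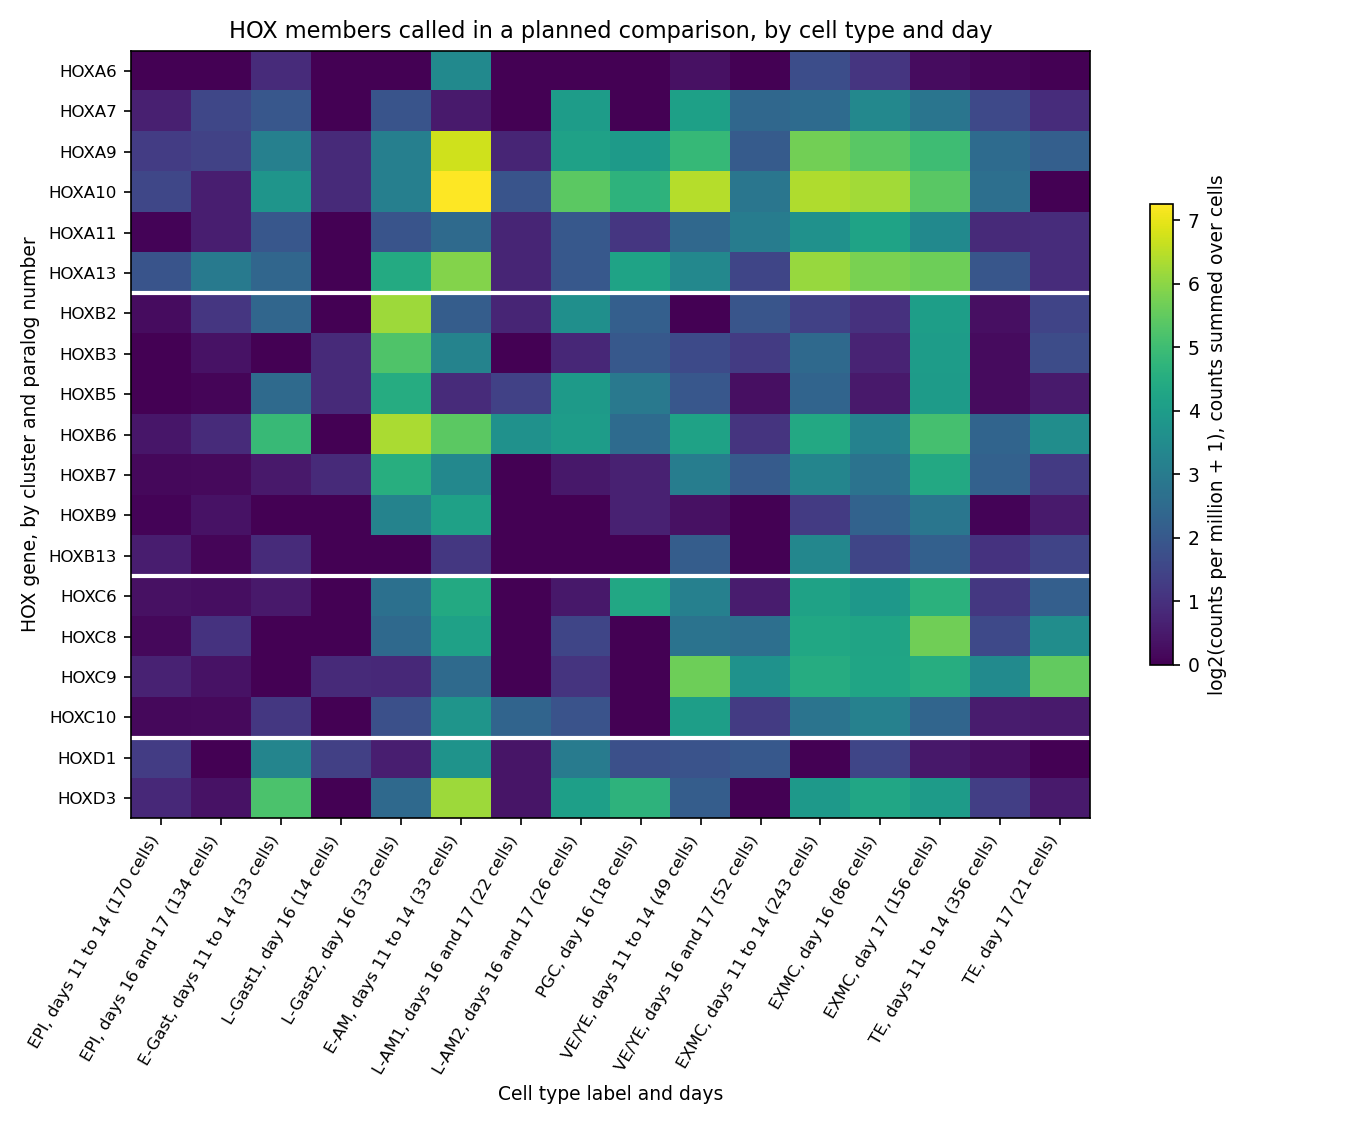
Each of the 19 rows is a HOX gene called in a planned comparison, in cluster and paralog order, and each column a cell type and period with its number of cells. Colour is log2(CPM + 1) of the counts summed over those cells. EXMC and E-AM columns are bright at HOXA9, HOXA10 and HOXA13, and the L-Gast2 column at HOXB2, HOXB3 and HOXB6.

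Before gastrulation was far advanced, EXMC, the mesenchyme that lines the extraembryonic cavities, already expressed posterior HOXA genes and most of the trunk members of HOXB and HOXC. Over days 11 to 14, 12 EXMC sums were set against 8 EPI sums, with 7 embryos holding both, and the embryo as a block. By edgeR's quasi-likelihood test, 16 of the 37 members were higher in EXMC (43.2%) and 1 was lower, with 24 members tested. Of all 15350 genes tested, 15.3% were called higher and 16.6% lower. The members higher were 6 of HOXA, 5 of HOXB, 4 of HOXC and 1 of HOXD.

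Among the posterior HOXA genes, HOXA10, known for its part in the uterus and in limb and axis patterning, had 28.8 CPM in the lowest, 99.1 in the median and 207 in the highest EXMC sum. In EPI the lowest was 0 and the highest 21.0 CPM, so the groups did not overlap. The log2 difference was 5.22 ± 0.82 (SE; 105 ± 58.2 against 4.06 ± 7.16 CPM, mean ± SD, n = 12 and 8), with an adjusted p of 2.09e-05 by edgeR with Benjamini-Hochberg adjustment. HOXA13, which in the mouse is needed for the distal limb and the umbilical arteries, had 34.6, 77.8 and 183 CPM in the lowest, median and highest EXMC sum. EPI reached at most 15.4 CPM for HOXA13, again with no overlap. The difference on the log2 scale was 5.40 ± 0.76 (SE; 81.7 ± 41.0 against 3.50 ± 5.36 CPM, mean ± SD), with an edgeR adjusted p of 1.5e-06. HOXA9, a factor of blood progenitors and limb, ran from 15.5 CPM over a median of 58.7 to 129 CPM, all above the highest EPI sum of 9.80 CPM. Its log2 difference was 4.75 ± 0.77 (SE) with an edgeR adjusted p of 1.76e-05.

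The cells behind these sums were many. HOXA10 had a count in 159 of 243 EXMC cells of these days (65.4%, exact 95% interval 59.1 to 71.4%), against 12 of 170 EPI cells (7.06%) and 64 of 356 TE cells. HOXA13 was seen in 172 of the 243 EXMC cells (70.8%) and HOXA9 in 147 (60.5%). Median counts per cell were alike, at 52413 in EXMC, 57126 in EPI and 70056 in TE. With each cell thinned to 20000 counts and shallower cells left out, HOXA10 was seen in 105 of 185 EXMC cells (56.8%), 2 of 132 EPI cells and 18 of 296 TE cells. Cells were amplified by PCR, and no source used here says whether copies were collapsed. Intervals therefore cover counting error only.

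HOXA11, a gene of the forearm and uterus, ran from 0 over a median of 10.1 to 26.4 CPM in EXMC, with 264 counts against none in EPI. With a floor of 3 counts over the group, it was at least 55.1-fold higher (edgeR adjusted p 0.000248). Of the trunk members of HOXA, HOXA7 had 0.805 to 12.1 CPM in EXMC and 0 to 2.93 CPM in EPI, which overlapped (log2 difference 2.77 ± 0.96, SE; edgeR adjusted p 0.0249). HOXA6 had 52 counts against none, at least 10.9-fold higher (edgeR adjusted p 0.0247). HOXA6 lost its call without day 11 embryo 1, day 12 embryo 1 or 2 or day 13 embryo 2 (edgeR adjusted p 0.0672 to 0.0921). HOXA7 lost it without day 11 embryo 2, day 12 embryo 1 or 2 or day 14 embryo 4 (0.0595 to 0.0817).

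In the HOXC cluster, whose middle genes pattern the thorax, HOXC9 had 6.66, 26.6 and 60.0 CPM in the lowest, median and highest EXMC sum. No EPI sum passed 3.65 CPM, so HOXC9 groups did not overlap. The log2 difference was 5.41 ± 0.86 (SE; 27.1 ± 15.4 against 0.872 ± 1.39 CPM), with an edgeR adjusted p of 6.18e-06. HOXC8 ran from 1.03 over 18.9 to 64.8 CPM, with 433 counts against 2 in EPI, a ratio of 135.6 (exact 95% counting interval 37.3 to 1123; edgeR adjusted p 1.63e-05). HOXC6 ran from 0 over 17.3 to 36.7 CPM against 0 to 7.31 in EPI, where 1 sum held all of its counts (log2 difference 4.90 ± 1.17, SE; edgeR adjusted p 0.00136). HOXC10, a lumbar gene, had 132 counts against 2 (ratio 41.3, interval 11.2 to 344.9; edgeR adjusted p 0.00245) and 0 to 26.2 CPM in EXMC.

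HOXB members and HOXD3 were also higher in EXMC. HOXB6, expressed in lateral plate mesoderm and early blood cells, had 3.09, 18.5 and 66.1 CPM in the lowest, median and highest EXMC sum. EPI had 0 to 5.48 CPM, which overlapped the lowest EXMC sums of HOXB6. The log2 difference was 4.96 ± 0.88 (SE; edgeR adjusted p 2.89e-05). HOXB7 ran from 1.27 over 11.3 to 24.6 CPM, with 201 counts against 1 (ratio 125.9, interval 22.3 to 4997; edgeR adjusted p 9.19e-06). HOXD3, a gene of the upper neck, ran from 0 over 18.1 to 36.6 CPM against 0 to 2.80 CPM (log2 difference 4.38 ± 0.86, SE; edgeR adjusted p 0.00013). These 3 were the firmest calls outside HOXA and HOXC.

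HOXB5, HOXB3 and HOXB9 had no EPI count and were at least 18.8-fold, 21.5-fold and 6.68-fold higher in EXMC. Their edgeR adjusted p were 0.00204, 0.00428 and 0.0315. In EXMC, HOXB3 reached 24.4 CPM, HOXB5 13.4 CPM and HOXB9 7.57 CPM, and each was at 0 in some EXMC sums. DESeq2 did not call these 3, nor HOXA6 or HOXD1, with adjusted p of 0.0795 to 0.738. HOXB9 was also lost without day 11 embryo 2, day 12 embryo 1 or 2 or day 14 embryo 4 (edgeR adjusted p 0.0691 to 0.115). HOXD1, the first gene of its cluster, was the member lower in EXMC, with no count against 24 in EPI. With the same floor it was at least 12.8-fold lower (edgeR adjusted p 0.0146), and it lost the call without day 11 embryo 2 (adjusted p 0.0513).

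At days 16 and 17 the EXMC program was still present. Against EPI, 11 of the 37 members were higher in EXMC (29.7%), none lower, with 7 and 6 sums, 6 embryos with both and 21 members tested. Of the 14750 genes tested, 6.54% were called higher and 3.11% lower. All 11 were also called in the earlier days, and those not called any more were HOXA6, HOXA7, HOXB3, HOXB9 and HOXC10.

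HOXA10 ran from 32.7 CPM over 64.2 to 112 CPM in late EXMC, above the EPI range of 0 to 2.94 CPM. Its log2 difference was 7.37 ± 1.25 (SE; 64.1 ± 29.9 against 0.747 ± 1.11 CPM, mean ± SD, n = 7 and 6), with an edgeR adjusted p of 9.14e-05. HOXC9 ran from 6.98 over 15.1 to 30.1 CPM, and no EPI sum passed 0.718 CPM (log2 difference 5.80 ± 1.00, SE; edgeR adjusted p 6.62e-05). Neither of these pairs of groups overlapped. HOXA9 ran from 19.6 over 31.8 to 68.1 CPM (log2 difference 5.25 ± 1.23, SE; edgeR adjusted p 0.00291), with EPI at 10.6 CPM or less. HOXC8 ran from 10.6 over 23.8 to 69.1 CPM (log2 difference 5.46 ± 1.16, SE; edgeR adjusted p 0.00113), with EPI at 4.70 CPM or less. HOXD3 ran from 4.50 to 34.0 CPM (log2 difference 5.50 ± 1.32, SE; edgeR adjusted p 0.00432), with EPI at 1.08 CPM or less. These 3 members did not overlap either.

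HOXC6 had 478 counts against 3 (ratio 100.8, interval 34.3 to 490.8; edgeR adjusted p 0.0020), with 3.55, 20.4 and 29.9 CPM in the lowest, median and highest EXMC sum. HOXB7 had 356 counts against 2 (ratio 112.7, interval 31.0 to 933.9; edgeR adjusted p 0.00225) and 0.709 to 21.8 CPM in EXMC. HOXA11 ran from 4.48 to 63.1 CPM, with EPI at 1.79 CPM or less (log2 difference 4.83 ± 1.28, SE; edgeR adjusted p 0.00937). The highest HOXA11 value was that of day 16 embryo 4, and without this embryo the adjusted p was 0.0599. HOXA13 ran from 31.9 over 47.0 to 83.3 CPM and overlapped with EPI, where day 16 embryo 4 had 36.6 CPM from 2 of its 21 cells. The other 5 EPI sums of HOXA13 were at 3.53 CPM or less. Its log2 difference was 4.17 ± 1.01 (SE; edgeR adjusted p 0.0041), and without the embryo block the call was lost (adjusted p 0.0688).

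HOXB5 and HOXB6 rested on day 17. HOXB6 had 0.499, 29.7, 0 and 5.67 CPM in EXMC of day 16 embryos 1 to 4 and 18.4, 24.5 and 45.3 CPM at day 17. HOXB5 had 0.499, 0.560, 0 and 0.709 CPM at day 16 and 14.3, 16.0 and 14.9 CPM at day 17. Both were low in most day 16 embryos and high in all 3 of day 17. The edgeR adjusted p were 0.0236 for HOXB6 (log2 difference 4.20 ± 1.24, SE) and 0.0235 for HOXB5 (237 counts against 1). Both calls were lost without any 1 of day 16 embryos 1 and 2 and day 17 embryos 1 and 2, with adjusted p of 0.0552 to 0.210. At day 16 alone 6 members were called.

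Over the whole series, the 19 EXMC sums were also fitted against day as a number. Of 15 members tested, 2 fell with day by edgeR and none rose, against 4.64% of the 11056 genes tested that fell and 7.15% that rose. HOXA10 had 124 and 182 CPM at day 11 and 207, 170, 120 and 74.2 CPM in embryos 1, 2, 3 and 5 of day 12. It had 28.8, 71.9 and 111 CPM at day 13, and 40.0, 44.2 and 87.2 CPM in embryos 1, 3 and 4 of day 14. At day 16 it had 112, 80.0, 32.7 and 85.1 CPM and at day 17 38.3, 64.2 and 36.5 CPM. The highest HOXA10 values were thus those of days 11 and 12, and the later days overlapped each other. The slope was -0.22 ± 0.07 log2 units per day (SE; edgeR adjusted p 0.0423).

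HOXB13, the most posterior HOXB gene, had a slope of -0.51 ± 0.17 per day (SE; edgeR adjusted p 0.0487). It had 50.5 CPM in day 12 embryo 5 and less than 20 CPM in any other EXMC sum of at least 5 cells, and 0 to 5.76 CPM at days 16 and 17. Neither slope was firm. HOXA10 lost its call in 9 of the 19 fits that left out 1 embryo (both of day 11, day 12 embryos 1 to 3, day 16 embryo 3 and all of day 17; adjusted p 0.0551 to 0.103) and HOXB13 in 15 (adjusted p 0.0502 to 0.179), all but those without day 12 embryo 2, day 13 embryo 2, day 14 embryo 4 or day 17 embryo 3. With the developmental stage embryos alone the adjusted p were 0.102 for HOXA10 and 0.0936 for HOXB13. Whether the slopes differ between EXMC and EPI was tested as an interaction, and none of 22 members tested was called. None had an unadjusted p under 0.05 and DESeq2 called none, against 2.61% of 15464 genes called in either direction.

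Days 16 and 17 differed in another set of genes. Between day 17 (3 embryos) and day 16 (4 embryos), 2 of the 37 members were higher at day 17 in EXMC and none lower, with 19 tested, against 1.27% of 12177 genes called higher and 1.65% lower. HOXB5 (values above) had 234 counts at day 17 against 3 at day 16, a ratio of 37.5 (exact 95% counting interval 12.7 to 183.2; edgeR adjusted p 0.0216), and the days did not overlap. HOXB2, a gene of the hindbrain and neck, had 15.5, 34.8 and 10.0 CPM at day 17 and 0.499, 0.560, 0.849 and 2.84 CPM at day 16. All HOXB2 values of day 17 were above those of day 16 (log2 difference 3.89 ± 0.96, SE; 20.1 ± 13.0 against 1.19 ± 1.11 CPM; edgeR adjusted p 0.0419). HOXB3 had 18.4, 13.5 and 13.2 CPM at day 17 and 0, 0, 0.849 and 2.13 CPM at day 16, and did not pass the test (log2 difference 4.18 ± 1.14, SE; edgeR adjusted p 0.0637). HOXC8 had 69.1, 42.5 and 41.2 CPM at day 17 and 18.5, 14.6, 23.8 and 10.6 CPM at day 16, with no overlap but an adjusted p of 0.147.

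Summed over the HOXB cluster, EXMC had 105, 106 and 125 CPM at day 17 and 19.0, 53.7, 4.24 and 16.3 CPM at day 16. The sums of days 11 to 14 ran from 18.5 to 116 CPM, so day 16 was low and day 17 was near the highest of the earlier days. HOXA went from 123 to 283 CPM at day 16 and from 131 to 185 CPM at day 17, which overlapped. Paralogs 9 to 13 held a median of 69.4% of the HOX counts of EXMC over days 11 to 14, 69.7% at day 16 and 42.9% at day 17. The HOXB share had a median of 12.6%, 4.82% and 25.7% in the same order. Day 17 embryos 1 and 2 have the culture stage label and all day 16 embryos the developmental one. With developmental stage embryos alone, day 17 is 1 embryo, and neither HOXB2 nor HOXB5 was called. The call of HOXB2 was lost without any 1 of the 7 embryos but day 16 embryo 4 (adjusted p 0.0722 to 0.293) and that of HOXB5 without any 1 of the day 17 embryos (0.0993 to 0.130). EXMC markers were high on both days, with COL3A1 at 5833 ± 1153 CPM at day 16 and 3794 ± 924 CPM at day 17. DCN had 2230 ± 972 and 2091 ± 395 CPM. Markers of other types also differed between these days in EXMC. The VE/YE list summed to 96.3 to 1885 CPM (median 1043) at day 16 and to 6.54 to 60.1 CPM (median 35.6) at day 17, and the EPI list had medians of 592 and 294 CPM, with none of the 6 markers of either list at 0. Their part in the HOXB difference was not tested.

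**Figure D3:**
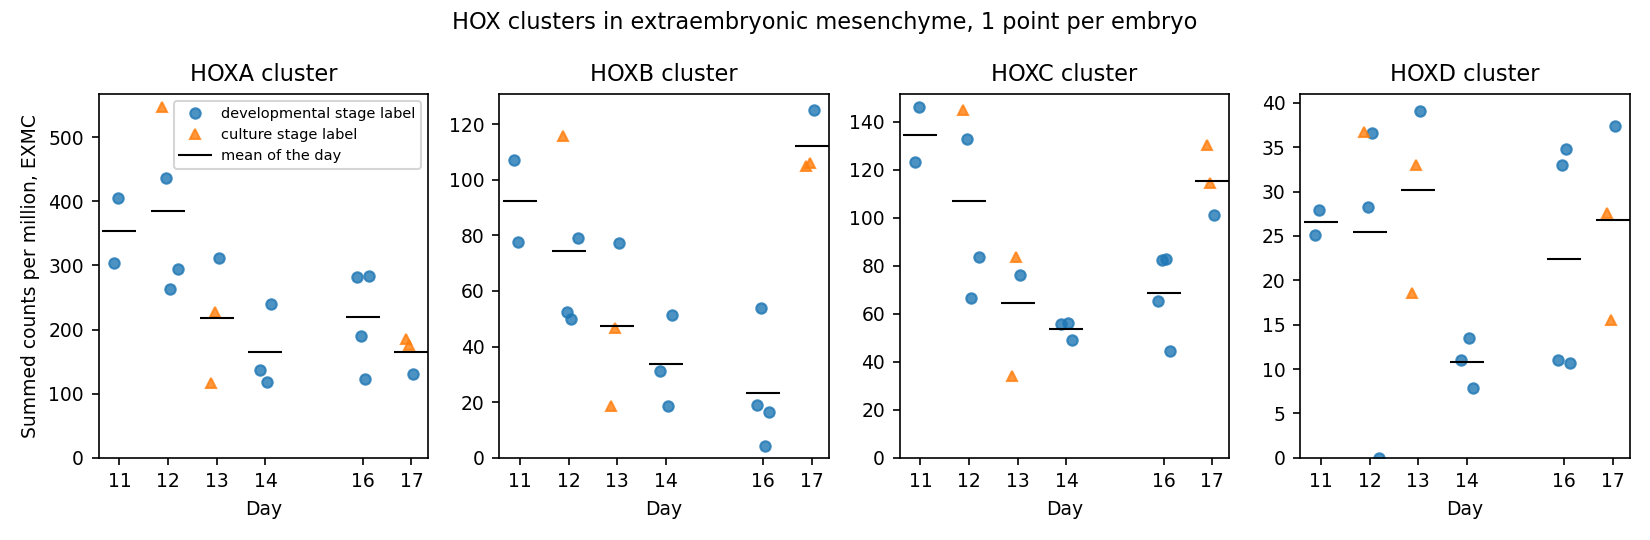
Summed CPM of each HOX cluster in EXMC (vertical axes, linear, different for each panel) by labelled day (horizontal axes), with 1 point per embryo with at least 5 EXMC cells and a line at the mean of the day. In the HOXB panel the day 16 embryos lie between 4.24 and 53.7 CPM and the 3 day 17 embryos between 105 and 125 CPM.

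Gastrulating cells of day 16 expressed HOXB genes. Late gastrulating cells (4 sums, all of day 16) were compared with late epiblast (6 sums, 4 embryos with both). Of the 37 members, 5 were higher in gastrulating cells (13.5%) and none lower, with 21 tested. Of the 14750 genes tested, 1.55% were called higher and 0.441% lower. All 5 are neighbours or near neighbours in HOXB, namely HOXB2, HOXB3, HOXB5, HOXB6 and HOXB7. Another 9 members had an unadjusted p under 0.05 without passing the adjusted test.

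HOXB2 and HOXB3 act in hindbrain segments and in the neck. HOXB2 had 50.2, 32.1, 80.6 and 1.11 CPM in gastrulating cells of day 16 embryos 1 to 4, and 0 to 10.2 CPM in EPI. Embryo 4 was low and within the EPI range, while the other 3 were above it. The log2 difference was 7.03 ± 1.28 (SE; 41.0 ± 33.3 against 2.06 ± 3.99 CPM, mean ± SD, n = 4 and 6), with an edgeR adjusted p of 0.000881. Without the embryo block the adjusted p of HOXB2 was 0.0535. HOXB3 had 18.2, 14.6, 44.4 and 3.32 CPM, all above the highest EPI sum of 1.08 CPM (log2 difference 7.59 ± 1.44, SE; edgeR adjusted p 0.00127).

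The trunk genes of the cluster followed. HOXB6 had 40.6, 204, 42.3 and 14.4 CPM in embryos 1 to 4 against 0 to 3.09 CPM in EPI. Embryo 2 was far above the others, and the groups did not overlap. Its log2 difference was 7.22 ± 1.32 (SE; 75.4 ± 86.9 against 0.818 ± 1.16 CPM), with an edgeR adjusted p of 0.0010. HOXB5 had 9.62, 33.6, 20 and 0 CPM, with 81 counts against 1 in EPI (ratio 239.6, interval 41.8 to 9579; edgeR adjusted p 0.0010). Embryo 4 had no HOXB5 count and so overlapped with EPI. HOXB7 had 6.41, 7.30, 17.1 and 35.4 CPM, with 85 counts against 2 (ratio 125.7, interval 33.7 to 1055; edgeR adjusted p 0.00373), and here embryo 4 was the highest. All 5 calls were kept in each of 7 fits that left out 1 embryo.

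The other members tested in the same cells did not pass the test. HOXA13 had 0, 1.46, 21.2 and 26.6 CPM, HOXA10 had 0, 0, 6.92 and 14.4 CPM, and HOXB9 had 0, 0, 5.70 and 19.9 CPM. Across the 4 embryos HOXB2 was thus low in embryo 4, where HOXB7, HOXB8, HOXB9, HOXA9, HOXA10 and HOXA13 were highest. This order of embryos was seen in the data and was not tested.

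The annotation L-Gast2 carried nearly all of this signal. Its 33 day 16 cells fell into 7, 5, 12 and 9 cells of embryos 1 to 4, and those of L-Gast1 into 4, 3, 4 and 3. HOXB summed to 230.5, 390.3, 284 and 110.2 CPM in L-Gast2 and to 0, 0, 5.55 and 8.11 CPM in L-Gast1. No member passed the filter on low counts in the direct comparison of these labels, in which 2.44% of the 6189 genes tested were called in either direction. HOXB2 and HOXB6 were called higher in L-Gast2 without the filter (edgeR adjusted p 0.00492 and 0.000101; 1.22% of 19039 genes called). They were also called without day 16 embryo 4 (0.00249 and 0.000384; 3.31% of 6487 genes called), and no member passed the filter when any other embryo was left out. A comparison of L-Gast2 with the epiblast of the same 4 embryos, chosen after the data had been seen, called 7 of 37 members higher and none lower by edgeR, against 2.01% of 12377 genes called higher and 1.51% lower.

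In L-Gast2 of embryos 1 to 4, HOXB2 had 88.8, 42.7, 103 and 1.28 CPM (log2 difference 7.33 ± 1.59, SE; edgeR adjusted p 0.00422), and EPI of day 16 had 0.882 CPM at most. HOXB3 had 32.1, 19.4, 56.4 and 3.84 CPM (138 counts against 3, ratio 144.6, interval 48.4 to 709.5; edgeR adjusted p 0.00621). HOXB6 had 71.8, 272, 54.3 and 16.7 CPM (log2 difference 6.90 ± 1.64, SE; edgeR adjusted p 0.0121). None of these 3 overlapped with EPI. HOXB5 had 17.0, 44.7, 25.1 and 0 CPM and was at least 83.8-fold higher (edgeR adjusted p 0.0134). HOXB7 had 11.3, 9.71, 21.9 and 39.7 CPM (edgeR adjusted p 0.0181). HOXA10 had 29 counts against 2 (edgeR adjusted p 0.0381). Leaving out 1 embryo gave 0 to 5 calls. HOXB2 was lost without embryo 1, 2 or 3 (adjusted p 0.0627 to 0.0796) and HOXB3, HOXB5 and HOXB6 without embryo 1 or 2 (0.0756 to 0.158). HOXB7 was lost without embryo 1, 2 or 4 (0.0887 to 0.0924) and HOXA10 without any 1 of the 4 (0.114 to 0.179). HOXB5 and HOXB7 were each tested in 3 of the 4 fits and did not pass the filter on low counts in the other. HOXB5 thus kept its call in 1 fit and HOXB7 in 0.

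Per cell, HOXB6 had a count in 22 of 33 L-Gast2 cells (66.7%) and in 9 of 101 epiblast cells of day 16. HOXB2 had a count in 15 of the 33 (45.5%) and in 4 of the 101. The 2 groups had median depths of 72269 and 89706 counts per cell, so the epiblast was the deeper. With each cell thinned to 20000 counts, HOXB6 was seen in 14 of 28 L-Gast2 cells and in 2 of 89 epiblast cells. HOXC4, by contrast, had a count in no L-Gast2 cell.

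L-Gast2 also carried EXMC genes. Its summed level of the 7 EXMC markers ran from 1212 to 3447 CPM (median 1654), against 10518 to 19377 CPM in EXMC and 187 to 525 CPM in EPI of day 16, and none of the 7 was at 0. COL3A1 had 377 ± 456 CPM and POSTN 22.0 ± 25.0 CPM in L-Gast2, against 5833 ± 1153 and 516 ± 345 CPM in EXMC. The part of EXMC material in the HOXB values was not tested. In EXMC of the same embryos HOXB2 had 0.499 to 2.84 CPM and HOXB3 0 to 2.13 CPM, while HOXB9 of embryo 2 had 15.7 CPM in EXMC and 0 in L-Gast2. Set against EXMC of day 16, in a comparison also chosen after the data had been seen, HOXB2 (log2 difference 5.73 ± 1.52, SE; edgeR adjusted p 0.0437) and HOXB3 (5.93 ± 1.58, SE; adjusted p 0.0452) were higher in L-Gast2. These were 2 of 37 members, against 0.323% of the 12377 genes tested that were called higher. Both were lost without embryo 1, 2 or 3 (adjusted p 0.21 to 0.374) and without the embryo block (0.0687 and 0.146).

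Over both late days, gastrulating cells and EXMC differed in 1 member each way, against 0.481% of 14750 genes called higher and 1.46% lower in gastrulating cells. HOXB2 was higher in gastrulating cells (log2 difference 5.10 ± 1.18, SE; edgeR adjusted p 0.0124), although its ranges of 1.11 to 80.6 and 0.499 to 34.8 CPM overlapped. HOXC9 was lower, with 0, 0, 1.22 and 1.11 CPM in gastrulating cells and 6.98 to 30.1 CPM in EXMC (log2 difference -4.98 ± 1.21, SE; edgeR adjusted p 0.019), and here the groups did not overlap. HOXB2 lost its call without day 16 embryo 1, 2 or 3 (adjusted p 0.0712 to 0.167) and without the embryo block (0.332). HOXC9 lost it without any 1 of the 4 day 16 embryos (0.053 to 0.0834). At day 16 alone neither was called, with adjusted p of 0.0506 and 0.0641.

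**Figure D4:**
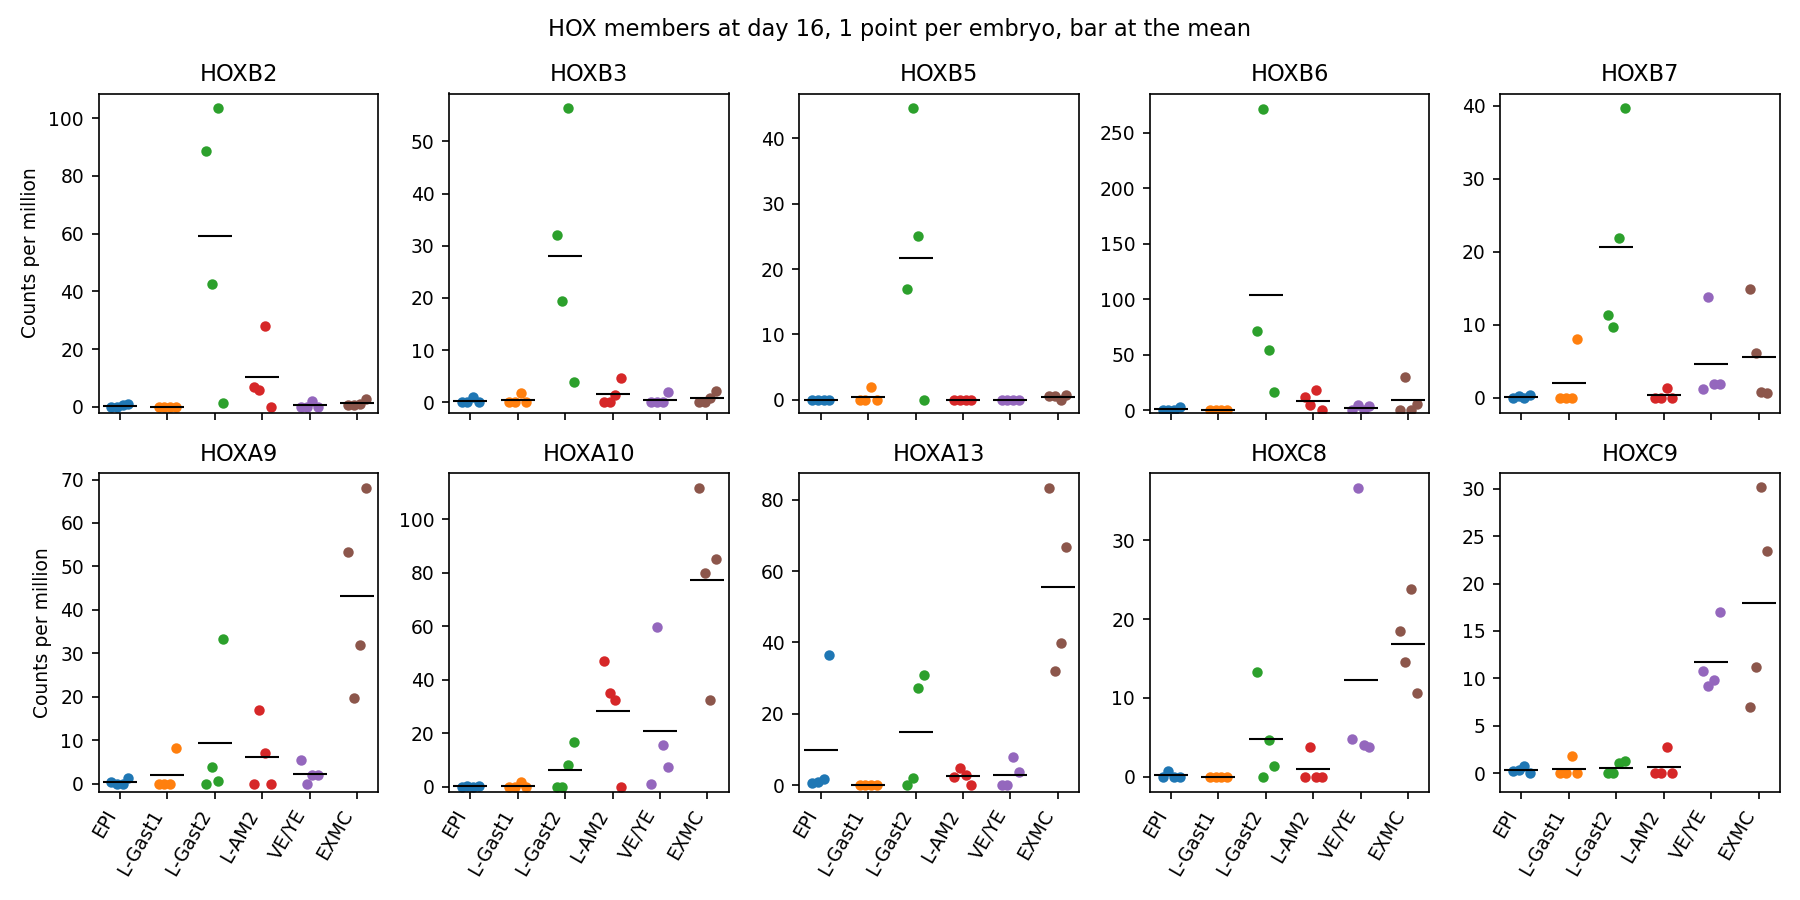
CPM of 10 HOX genes at day 16 (vertical axes, linear, different for each panel) in 6 cell types (horizontal axes), with 1 point per embryo with at least 3 cells of the type and a bar at the mean. HOXB2, HOXB3, HOXB5 and HOXB6 are highest in L-Gast2, where HOXB6 reaches 272 CPM, while HOXA9, HOXA10, HOXA13 and HOXC9 are highest on average in EXMC.

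Early gastrulating cells had few HOX counts that could be tested. In days 11 to 14, 3 Gast sums of at least 3 cells were compared with 11 EPI sums, a comparison chosen after the data had been seen. No member of 19 tested was called by edgeR, 5 had an unadjusted p under 0.05, and DESeq2 called 1. Of the 13898 genes tested, 0.0072% were called in either direction. HOXD3 had 129, 11.3 and 7.66 CPM in day 12 embryo 1, day 14 embryo 2 and day 14 embryo 4 (log2 difference 5.12 ± 1.05, SE; edgeR adjusted p 0.0513), and did not pass the test.

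Early amnion, the epithelium that closes the amniotic cavity, carried a broad HOX set from all 4 clusters. In days 11 to 14, 5 AM sums of 3 to 7 cells were compared with 11 EPI sums, again in a comparison chosen after the data had been seen. Their cells were E-AM except 1 cell of day 13 embryo 3 with the late label L-AM2. This cell alone had 315091 counts and 18 members, against a median of 28470 counts per E-AM cell. Its part in the values of that embryo and in the calls was not tested. By edgeR, 13 of 37 members were higher (35.1%) and none lower, with 19 tested, against 3.04% of 13898 genes called higher and 4.19% lower. They were HOXA9, HOXA10, HOXA11 and HOXA13, HOXB3, HOXB6, HOXB7 and HOXB9, HOXC8, HOXC9 and HOXC10, and HOXD1 and HOXD3.

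Values follow for day 12 embryos 1 and 2, day 13 embryo 3 and day 14 embryos 2 and 4. HOXD3 had 178, 77.0, 70.6, 16.4 and 53.3 CPM, all above the highest EPI sum of 2.80 CPM (log2 difference 6.04 ± 0.88, SE; edgeR adjusted p 9.98e-06). HOXA10 had 178, 59.9, 165, 24.5 and 143 CPM, above the EPI maximum of 21.0 CPM (log2 difference 4.96 ± 0.82, SE; edgeR adjusted p 0.000107). HOXA13 had 54.7, 59.9, 67.2, 106 and 48.6 CPM, above the EPI maximum of 28.1 CPM (log2 difference 4.32 ± 0.79, SE; edgeR adjusted p 0.000293). These 3 members were high in every sum. HOXA9 had 144, 98.4, 99.2, 0 and 58.1 CPM (log2 difference 4.51 ± 0.86, SE; edgeR adjusted p 0.000566). HOXB6 had 54.7, 55.6, 119, 0 and 18.1 CPM (log2 difference 5.50 ± 0.97, SE; edgeR adjusted p 0.000142). Day 14 embryo 2, with 3 cells, had no count of either and overlapped with EPI.

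The remaining calls in early amnion rested on 14 to 39 counts. HOXB9 had 39 counts against 1 (edgeR adjusted p 0.00976), HOXC10 37 against 2 (0.000905), HOXB7 36 against 1 (0.000614) and HOXC8 26 against 2 (0.0432). HOXB3 and HOXA11 were at least 67.2-fold and 32.4-fold higher, with no EPI count (edgeR adjusted p 0.00726 and 0.0412). HOXD1 differed by 4.33 ± 1.28 and HOXC9 by 3.36 ± 1.04 log2 units (SE; edgeR adjusted p 0.0327 and 0.0376). Leaving out 1 embryo gave 8 to 16 calls. HOXA11 was lost without day 11 embryo 1, day 12 embryo 1 or 3, day 13 embryo 3 or day 14 embryo 2 or 4, and HOXC8 without the first 5 of these. HOXC9 was lost without day 11 embryo 1, day 12 embryo 1 or 2, day 13 embryo 2 or 3 or day 14 embryo 2. HOXD1 was lost without day 12 embryo 1 or 2 or day 14 embryo 4, HOXB9 without day 12 embryo 1 or day 14 embryo 4, and HOXB3 without day 14 embryo 4. The adjusted p of these lost calls ran from 0.053 to 0.792. HOXB9 was tested in 9 and HOXB3 in 13 of the 14 fits, as they did not pass the filter on low counts in the others. HOXB9 thus kept its call in 7 of the 14 fits and HOXB3 in 12. With at least 5 cells per sum, 2 AM sums remained and 7 members were called.

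Single cells showed the same breadth. Of the 33 E-AM cells, 32 had a HOX count, with a median of 5 members per cell. HOXA10 was seen in 22 of them (66.7%), HOXA9 in 20 and HOXA13 in 19, at a median depth of 28470 counts per cell, which is lower than the 57126 of EPI. Thinned to 20000 counts, 12 of 20 E-AM cells had HOXA10. The most posterior HOXD genes were seen mainly in E-AM but in few cells, as HOXD12 had 16 of its 17 counts in 2 E-AM cells and HOXD13 had 21 of its 31 counts in 2. E-AM cells had 14.1 ± 12.1 CPM of COL3A1 and 0.905 ± 1.55 CPM of DCN, against 1660 ± 1324 and 416 ± 859 CPM in EXMC of the same days. HAND1, which amnion also expresses, was at 914 ± 537 CPM in E-AM. The summed EXMC marker list ran from 366 to 1698 CPM in E-AM (median 924) and from 39.6 to 1045 CPM in EPI (median 102), with none of 7 markers at 0. The TE marker list summed to 752 to 1673 CPM in E-AM and 611 to 4091 CPM in EPI. Trophoblast of these days had the low HOX sums given above. The part of other cell types in the E-AM values was not tested.

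Late amnion was lower. At days 16 and 17, 2 of 37 members were higher in AM than in EPI by edgeR and none lower (4 and 6 sums, 21 tested), against 2.09% of 14750 genes called higher and 0.427% lower. HOXA10 had 13.0, 29.3, 16.2 and 6.66 CPM in embryos 1 to 4 of day 16, all above the EPI maximum of 2.94 CPM (log2 difference 4.96 ± 1.33, SE; edgeR adjusted p 0.0342). HOXB6 had 3.80, 3.96, 9.18 and 73.3 CPM, also without overlap (log2 difference 4.67 ± 1.22, SE; edgeR adjusted p 0.0277). In embryo 4 the HOXB6 counts came from 1 of 8 cells. HOXA10 was lost without any 1 of the 4 embryos (adjusted p 0.0749 to 0.144) and HOXB6 without embryo 1, 2 or 4 (0.0804 to 0.083). L-AM2 held 82.1, 189, 156 and 4.67 CPM over all members, and L-AM1 16.97, 19.8 and 178 CPM in embryos 1, 3 and 4. Early and late amnion come from different embryos, and their difference was not tested. Between late amnion and late gastrulating cells no member was called by edgeR, with 9 members at an unadjusted p under 0.05 and 2 called by DESeq2, against 0.705% of 14750 genes called in either direction.

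Visceral or yolk sac endoderm, the endoderm that underlies the epiblast and lines the yolk sac, expressed HOXA and HOXC genes. In days 11 to 14, 7 VE/YE sums of at least 3 cells were compared with 11 EPI sums, a comparison chosen after the data had been seen. By edgeR, 11 of 37 members were higher (29.7%) and none lower, with 19 tested, against 13.3% of 13898 genes called higher and 16.7% lower. HOXC9 had 61.3 and 65.0 CPM at day 11, 6.07, 20.8 and 46.4 CPM in embryos 2, 3 and 5 of day 12 and 71.3 and 43.0 CPM in embryos 2 and 3 of day 13. All HOXC9 sums were above the EPI maximum of 3.65 CPM (log2 difference 5.89 ± 0.83, SE; edgeR adjusted p 2.54e-07).

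HOXA10 had 24.3 CPM in the lowest, 67.4 CPM in the median and 232 CPM in the highest early VE/YE sum (log2 difference 4.79 ± 0.75, SE; edgeR adjusted p 5.14e-06), with EPI at 21.0 CPM or less. HOXC10 had 4.16 to 31.1 CPM, with 56 counts against 2 (ratio 130.5, interval 34.5 to 1104; edgeR adjusted p 2.79e-05). Neither overlapped with EPI. HOXA9 differed by 3.75 ± 0.79 log2 units (SE; edgeR adjusted p 0.00029), with 0 CPM in day 12 embryo 3 and up to 48.6 CPM elsewhere. The other calls were HOXA7, HOXA11, HOXB3, HOXB6, HOXB7, HOXC6 and HOXC8, with edgeR adjusted p of 0.000135 to 0.0403, and all overlapped with EPI. HOXB6 was seen in 2 of 7 sums, with 34.1 CPM in day 11 embryo 1 and 36.1 CPM in day 13 embryo 3, and was lost without either of these embryos, day 12 embryo 1 or day 14 embryo 4 (adjusted p 0.0668 to 0.485).

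HOXA13 set the endoderm apart from EXMC by its values. It had 24.5 CPM in day 11 embryo 1 and 0 to 6.07 CPM in the other 6 VE/YE sums, all below the lowest EXMC sum of 34.6 CPM. This difference was seen in the data and has no test of its own. HOXA10 by contrast was seen in 35 of 49 early VE/YE cells (71.4%), a share near that of EXMC. The EXMC marker list summed to 78.6 to 448 CPM (median 242) in these sums, against a median of 4245 CPM in EXMC, and none of the 7 was at 0. Its part in the HOX values was not tested.

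At days 16 and 17, 6 of 37 members were higher in VE/YE than in EPI by edgeR (16.2%; 5 and 6 sums, 21 tested) and none lower, against 5.05% of 14750 genes called higher and 5.68% lower. HOXC9 had 10.7, 9.17, 9.85 and 17.0 CPM in day 16 embryos 1 to 4 and 16.5 CPM in day 17 embryo 3, above the EPI maximum of 0.718 CPM. Its log2 difference was 5.14 ± 1.03 (SE; edgeR adjusted p 0.000738), and the call was kept in each of 7 fits that left out 1 embryo. HOXA10 had 1.19, 59.6, 15.8, 7.57 and 0 CPM in the same order, which overlapped with EPI (log2 difference 4.40 ± 1.34, SE; edgeR adjusted p 0.0307). HOXD1 had 0.596, 13.8, 0, 9.46 and 3.66 CPM and no EPI count, at least 15.9-fold higher (edgeR adjusted p 0.0147). The other calls were HOXB7, HOXC8 and HOXA11, with edgeR adjusted p of 0.0332, 0.0414 and 0.0486.

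Leaving out 1 embryo gave 1 to 6 of these late calls. HOXA11 was lost without any 1 of the 4 day 16 embryos and day 17 embryos 1 and 2. HOXB7 was lost without day 16 embryo 1, 2 or 3 or day 17 embryo 1 or 2, HOXC8 without any 1 of the day 16 embryos or day 17 embryo 1, HOXA10 without day 16 embryo 2, 3 or 4, and HOXD1 without day 16 embryo 4. The adjusted p of these lost calls ran from 0.0573 to 0.207. HOXD1 was tested in 6 of the 7 fits, did not pass the filter on low counts in the other and kept its call in 5. The sum of all members was 190 to 365 CPM in early and 42.3 to 202 CPM in late VE/YE. In a fit of VE/YE against day over 9 sums, chosen after the data had been seen, 1 member passed the filter and none was called. None had an unadjusted p under 0.05, and 0.145% of 7602 genes were called in either direction.

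In the epiblast, 45.9% of 170 cells in days 11 to 14, 39.6% of 101 cells at day 16 and 72.7% of 33 cells at day 17 had any HOX count. Thinned to 20000 counts, these shares were 22.7%, 12.4% and 50.0%. The median number of members per cell was 0 in days 11 to 14 and at day 16, and 1 at day 17. HOXC4 was the member most often seen in early EPI, with a count in 23 of 170 cells and 0 to 19.7 CPM per embryo. At days 16 and 17, day 17 embryo 1 stood highest with 106 CPM over all members. HOXA held 83.0% of its HOX counts and paralogs 1 to 3 of all clusters 70.4%, and it had 18.8 CPM of HOXA7. No member passed the filter on low counts in a fit of EPI against day, in which 3.81% of the 11589 genes tested were called in either direction. Without the filter, HOXA2 and HOXA3 were called higher with day (edgeR adjusted p 0.00429 and 0.0247), 2 of 31 members tested, against 4.77% of 25829 genes. The HOXA2 counts of EPI came from 1 cell each of day 17 embryos 1 and 2, and those of HOXA3 from 3 cells of day 17 embryo 1. Primordial germ cells, seen at day 16 in 18 cells, held 168, 172 and 172 CPM over all members in embryos 2, 3 and 4. These sums differed in make-up, as HOXA10 had 77.4, 0 and 0 CPM and HOXD3 had 0, 26.3 and 141 CPM. In TE of day 17, HOXC9 had 99 counts in 4 of 21 cells. Thinned to 20000 counts, 12 of 18 of these TE cells had any HOX count (66.7%), against 47.3% of TE cells in days 11 to 14.

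Members without a call in the comparisons that were planned include HOXA2 to HOXA5, HOXB4, HOXB8, HOXC4, HOXC5, HOXC11 to HOXC13 and HOXD8 to HOXD13. HOXC4 had 675 counts in 218 cells. The central and posterior HOXD genes were spread thinly, with 279 counts for HOXD8, 364 for HOXD9 and 241 for HOXD10. HOXD11 had 14 counts in 7 cells, HOXD12 17 in 3 cells and HOXC12 2 in 1 cell. HOXA2 had 49 counts in 10 cells and HOXA4 48 in 11 cells. A second row, stored under a numbered identifier that RefSeq also names HOXC10, held 45 counts in 11 cells and is outside the rule.

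Cells differed in how many members they held. EXMC cells had a median of 5 members over days 11 to 14 (at most 28), 3 at day 16 and 6 at day 17. After thinning each cell to 20000 counts and leaving out shallower cells, these medians were 3, 2 and 4. L-Gast2 and early VE/YE cells had a median of 4, late VE/YE of 2 and TE of 1. Pairs of genes in the same thinned EXMC cell gave mixed values. In days 11 to 14, HOXA10 was seen in 55 of 85 cells with HOXA9 (64.7%) and in 50 of 100 without it (50.0%). HOXA13 was seen in 69 of 105 cells with HOXA10 (65.7%) and in 37 of 80 without it (46.3%). At days 16 and 17 the shares were 48.1% and 32.9% for HOXA10 with and without HOXA9, but 34.2% and 37.1% for HOXA13 with and without HOXA10. HOXB7 was seen in 16.1% of cells with HOXB6 and 13.6% without it in days 11 to 14, and in 22.2% and 9.94% at days 16 and 17. For HOXB6 and HOXC8, which lie in different clusters, HOXC8 was seen in 47.2% of cells with HOXB6 and 29.8% without it at days 16 and 17. Cells of the same embryo share depth and day, so these shares are descriptions without a test.

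Genes of 4 lists that act with or on HOX genes were read beside them in the late comparisons. TALE factors (PBX, MEIS, PREP families) bind DNA together with HOX proteins, and 9 had a row and 8 were tested. MEIS2 was higher than in EPI in Gast (log2 difference 4.10 ± 0.88, SE; edgeR adjusted p 0.0149), AM (4.62) and EXMC (4.39), and MEIS1 in AM (4.80) and EXMC (3.30). In VE/YE no TALE gene was higher and 1 was lower, with a median log2 difference of -0.43 over those tested and -0.23 over all genes. Of 14 retinoic acid genes tested, 2 were higher in Gast, 1 in AM, 3 in EXMC and 2 in VE/YE, with none lower, beside 1.55%, 2.09%, 6.54% and 5.05% of all genes called higher. DHRS3, which limits retinoic acid, was higher in Gast (2.43 ± 0.59, SE; edgeR adjusted p 0.0149) and AM (2.42). The receptor RARB (2.79) and the retinol channel STRA6 (1.76) were higher in EXMC. Medians of the retinoic acid list were 0.81 in Gast, 0.49 in AM and 1.41 in EXMC, against -0.16, -0.18 and -0.05 over all genes tested.

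Of 16 Polycomb and trithorax genes tested, KDM6B, which removes the Polycomb mark, was higher in Gast (2.48 ± 0.65, SE; edgeR adjusted p 0.0311) and EXMC (1.65). EZH2, the Polycomb methyltransferase, was lower in AM (-1.81 ± 0.52, SE; edgeR adjusted p 0.0499), and JARID2, a Polycomb partner, lower in EXMC (-2.27). Of the CDX genes and HOX neighbours, 8 had a row, 3 were tested and none was called in Gast, AM or EXMC against EPI of the late days. In days 11 to 14, AM had 2 of this list higher and 1 lower. CDX2, an activator of trunk HOX genes that is named here after its values were seen, had 171 ± 84.8 CPM in AM and 11.8 ± 20.7 CPM in EPI of these days (log2 difference 4.05 ± 0.93, SE; edgeR adjusted p 0.00537). It had 77.0 ± 70.0 CPM in L-Gast2 and was higher there than in the day 16 epiblast (4.95 ± 1.46, SE; edgeR adjusted p 0.0449). In EXMC of days 11 to 14, where posterior HOX genes were high, CDX2 had 20.4 ± 26.4 CPM and was not called, while 2 of the list were lower. Also in early EXMC, and named after their values were seen, ALDH1A2, which makes retinoic acid (7.84 ± 0.90, SE; edgeR adjusted p 8.19e-08), and MEIS1 (5.49 ± 0.62, SE; adjusted p 7.06e-09) were higher than in EPI. Of 14 retinoic acid genes tested there, 4 were called higher and none lower, and of 9 TALE genes 4 were higher and 1 lower, beside the 15.3% and 16.6% of all genes given above.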

How the data were processed

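The authors deposited a table of raw counts (30792 genes, 1453 cells) and a table of other values, the day and cell label of each cell, per the file headers. The submitters' processing notes name STAR alone. No source used here gives its version, the build, the read counter, the strand setting or whether PCR copies were collapsed. The day in the cell table equalled that of the embryo's label for all 1453 cells. No further filter on cells and no doublet caller was used, because cells were picked singly.

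Counts were summed per embryo and cell type with at least 5 cells, or at least 3 cells for single labels and for the comparisons of days 11 to 14 with AM, Gast and VE/YE. Genes were kept by filterByExpr, scaled by TMM and tested with edgeR 4.0.16 (quasi-likelihood test, robust) in R 4.3.3. The embryo was a block wherever types of the same embryos were compared, since same-numbered sums there come from the same embryo. Calls needed an adjusted p (Benjamini-Hochberg, over all genes tested) under 0.05. SE is the log2 difference divided by the square root of F. CPM is counts per 1000000 of the sum. RefSeq names matched 37 of the 37 members. P-values measure the spread between these embryos. Alternatives were DESeq2 1.42.0, RLE scaling, no filter, other minimums of cells, no block, day 16 alone, the kind of day label and leaving out each embryo. The procedure was run on simulated counts in which only genes above the median level were changed and no embryo effect was set. That run therefore does not cover members with few counts.

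The members and gene lists were chosen with earlier results of these data known. Values per embryo are given for members called in a planned comparison, at most 20, in order of the number of calls and then of the summed count; genes of the lists were named where called against EPI at days 16 and 17. A set of 6 comparisons was added after the data had been seen, and each is marked so or listed here: L-Gast2 against EPI and EXMC, AM, Gast and VE/YE against EPI in days 11 to 14, and VE/YE against day. Counts cover every member, but results of some genes are not reported here.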

Additional observations from a re-analysis of the deposited data

Results flagged for a closer look

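In groups of 4 embryos, 1 embryo stood far from the other 3 in 18 of 99 groups checked. The rule flags about 1 in 20 groups of normally distributed values. The values here are sparse and skewed, so this rate does not apply to them and no excess can be read from the 18. Values below are CPM of the embryo that stood apart. In EXMC of day 16, embryo 2 was high in HOXC10 (25.7), HOXB9 (15.7), HOXD1 (6.16) and HOXA6 (5.04), and embryo 4 in HOXA11 (63.1) and HOXB2 (2.84). In EXMC of day 12, embryo 1 was high in HOXB5 (12.2). In L-Gast2 of day 16, embryo 1 was high in HOXA11 (15.1), embryo 4 in HOXA9 (33.3) and embryo 3 in HOXC10 (4.70). In VE/YE of day 16, embryo 2 was high in HOXC8 (36.7) and embryo 1 in HOXC10 (2.98). In amnion of day 16, embryo 4 was high in HOXB6 (73.3), embryo 3 in HOXB5 (3.53) and embryo 2 in HOXC8 (3.17). In epiblast of day 16, embryo 4 was high in HOXA13 (36.6) and embryo 3 in HOXA11 and HOXA7 (1.79 each). Several of these sums hold few cells, and the causes were not tested.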

How the results depend on the processing

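Counts of called members are given. None of the results turned its direction under any alternative. Of 1312 alternatives for single members, 1106 kept the direction and the side of the threshold and 203 lost the call. Fits in which a member did not pass the filter on low counts are not among the 1312. Of 283 alternatives for counts of calls, 212 stayed within 1.5 times the value reported. The cause of the others, listed here, was not tested beyond the change of cells, genes or embryos that each makes.

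Without a filter on low counts, Gast against EPI gave 8 calls at days 16 and 17 and 3 in days 11 to 14. AM against Gast gave 2, EPI against day 2, EXMC of day 17 against day 16 4, L-Gast2 against L-Gast1 2 and early AM against EPI 20. DESeq2 gave 4 for Gast against EXMC, 2 for AM against Gast, 1 for early Gast against EPI and 1 for L-Gast2 against EXMC, and RLE scaling gave 1 for early Gast against EPI. With at least 3 cells per sum, AM against Gast gave 2 and EXMC against day 4. With at least 5 cells, early AM against EPI gave 7 and L-Gast2 against EXMC 1, and L-Gast2 against L-Gast1 could not be fitted. With at least 10 cells, late AM against EPI gave 1, late VE/YE against EPI 1, Gast against EXMC 0 and EXMC against day 0. At day 16 alone, AM against EPI gave 1, EXMC against EPI 6 and Gast against EXMC 0. With developmental stage embryos alone, EXMC against day and EXMC of day 17 against day 16 gave 0, and the kind of label as a covariate left 1 for EXMC against day.

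The embryo pairs sums of different types. With no replicate block, Gast against EXMC gave 1 call, early Gast against EPI 3 and L-Gast2 against EXMC 0. It moved no other count of calls by more than 1.5 times, and 7 of 76 single calls were lost.

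Leaving out 1 embryo gave these lowest and highest counts: late AM against EPI 0 and 2, late VE/YE against EPI 1 and 6, Gast against EXMC 0 and 2, EXMC against day 0 and 2, EXMC of day 17 against day 16 0 and 3, L-Gast2 against L-Gast1 0 and 2, early AM against EPI 8 and 16, L-Gast2 against EPI 0 and 5, and L-Gast2 against EXMC 0 and 2. Late Gast against EPI had 5 and 6, late EXMC against EPI 9 and 13, early EXMC against EPI 14 and 18 and early VE/YE against EPI 9 and 12. Sums of 3 to 14 cells limit the amnion, L-Gast2 and endoderm values, in which 1 cell can set a member's level.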
